A study of Homo sapiens with 2 samples.

Results

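The ABC (ATP-binding cassette) transporters were taken as the rows of the deposited count and FPKM table whose gene name is ABC, a subfamily letter from A to G, and digits only. The rule found 36 genes among 23321, with 11 in subfamily A, 6 in B, 9 in C, 3 in D, 1 in E, 3 in F and 3 in G. ABCC2 had been singled out because of its difference in earlier work on these data, so its values are given as a description. RNA was sequenced from AGS cells, a human cell line from a gastric adenocarcinoma, stably transfected with a GGT7 plasmid (AGS-GGT7, genotype given as ectopic GGT7 expression) or with a negative control plasmid (AGS-ctrl, genotype given as WT), each at 2 weeks. GGT7 belongs to the gamma-glutamyltransferase family, and the series title ties it to RAB7, mitophagy and suppression of gastric cancer. Each group held 1 library of a single cell line, with a summed count of 10289206 for AGS-GGT7 and 13482913 for AGS-ctrl. Since each group is 1 library, nothing here can be checked against replicates and no p-values are given. The labels do not say whether the transfected cells were a clone or a pool.

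ABC proteins share a nucleotide-binding domain that binds and hydrolyses ATP, and most members couple this to the movement of a substrate across a membrane. Subfamily A carries lipids, subfamily B includes P-glycoprotein and mitochondrial transporters, and subfamily C holds the multidrug resistance proteins that export glutathione, glucuronide and sulfate conjugates. Members of subfamily D act in peroxisomes and lysosomes, those of E and F have no membrane-spanning part and act on ribosomes, and subfamily G moves sterols and drugs. In gastrointestinal tumours the family is known mainly for drug efflux.

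The targeted gene and the label of the cells were looked at first. GGT7 had 470 counts (12.2 FPKM) in the AGS-GGT7 library and 90 counts (1.78 FPKM) in the AGS-ctrl library, 6.84-fold higher (5.45 to 8.67). FPKM divides a count by the length of the gene and by the total of the library, and brackets after a fold hold its exact 95% interval, which covers counting error only. The epithelial keratin gene KRT18 was at 118 FPKM in AGS-GGT7 and 111 FPKM in AGS-ctrl, and the gastric mucin gene MUC5AC at 16.3 FPKM in AGS-GGT7 and 17.6 FPKM in AGS-ctrl. Of 6 epithelial markers, 5 passed 1 FPKM: KRT7 was at 100.6 FPKM in AGS-GGT7 and 82.9 FPKM in AGS-ctrl, KRT8 at 45.4 FPKM in AGS-GGT7 and 69.96 FPKM in AGS-ctrl, and EPCAM was low, at 1.57 FPKM in AGS-GGT7 and 2.29 FPKM in AGS-ctrl. CDH1, the epithelial cadherin, was under 1 FPKM in both. MUC5AC was the 1 of 6 gastric mucosa markers above 1 FPKM. Of 9 marker genes of blood cells, fibroblasts and endothelium, CDH5 and COL1A1 passed 1 FPKM, at 1.84 and 1.60 FPKM in AGS-GGT7, against 2.14 and 2.46 FPKM in AGS-ctrl. The blood cell marker PTPRC had 5 counts in each library, and the part of such markers in any result was not tested.

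Of the 36 ABC genes, 24 were measured, which here means 1 FPKM or more in whichever library was higher. The lowest of them, ABCD4, was at 1.00 FPKM in AGS-GGT7 and 1.27 FPKM in AGS-ctrl, and the next gene below the limit, ABCB9, at 0.416 FPKM in AGS-GGT7 and 0.531 FPKM in AGS-ctrl. On the scale of log2(FPKM + 1), 0 of the 24 were 2-fold or more higher in AGS-GGT7 and 0 were 2-fold or more lower, beside 0.858% and 1.16% of the 14215 measured genes of the table. At 1.5-fold ABCC2 alone was higher and none was lower, beside 3.9% and 4.97% of all measured genes. This scale understates the change of low genes. By the plain ratio of FPKM, ABCC2 was past 2-fold (2.82% of all measured genes were higher by as much). ABCC2, ABCA3 and ABCA1 were at 1.5-fold or more (7.66%). Of these, ABCC2 passed the limit of 1 FPKM only in AGS-GGT7, the library in which it was higher. ABCC5 was the 1 gene lower by 1.5-fold or more (10.1%). Its ratio of 0.667 lay right at that limit, and with other scalings of the libraries it was 0.672 to 0.686, short of 1.5-fold. By the plain ratio at 1.5-fold, 12.5% of the 24 genes were thus higher, beside 7.66% of all measured genes. The share lower was 4.17%, beside 10.1%. Whether these shares differ was not tested.

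Small differences beyond counting error were common in the family. For 8 of the 24 genes the whole interval of the ratio was above 1, beside 19.6% of all measured genes, and for 12 of the 24 it was below 1, beside 25.4%. Such calls depend on the number of counts. Among the 10084 genes with 191 to 6811 counts over both libraries, the range the measured ABC genes span, the shares were 22.7% and 29.8%. The higher genes included ABCC2, ABCA3, ABCA1, ABCC3, ABCG2, ABCG1 and ABCC1. The lower genes included ABCC5, ABCB8, ABCC10, ABCA7, ABCD4, ABCF3, ABCD3, ABCA5, ABCC4, ABCF1 and ABCF2. ABCE1, ABCA2, ABCB6 and ABCB10 had intervals that held 1. The higher genes named here transport drugs, conjugates or lipids, but genes of the same roles were also among the lower ones. Of the 7 measured drug and organic anion exporters, 4 were higher and 3 lower, and the lipid transporters ABCA5 and ABCA7 were lower. All 3 genes of subfamily F were among the lower ones, as were ABCD3 and ABCD4.

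**Figure D1:**
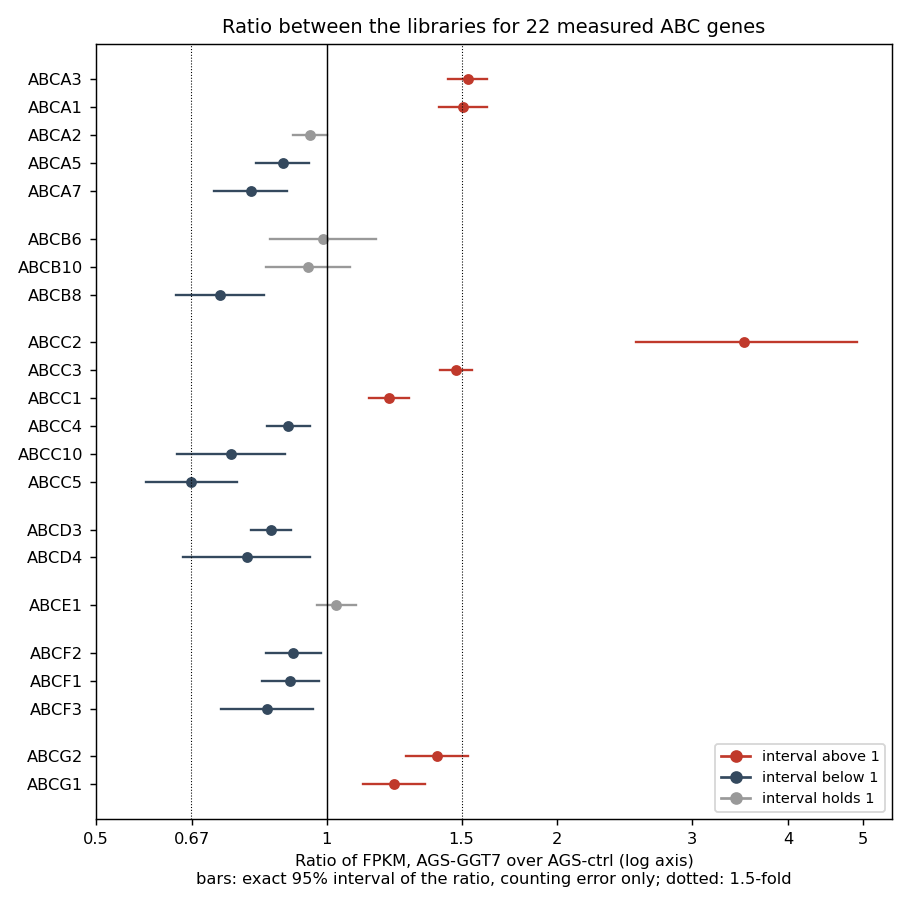
Ratio of FPKM in the AGS-GGT7 library over the AGS-ctrl library (log axis) for 22 measured ABC genes, grouped by subfamily, with the exact 95% interval of each ratio (counting error only) and dotted lines at 1.5-fold. ABCC2 stands apart at 3.50, and the intervals of 7 genes drawn lie above 1 and those of 11 below 1.

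ABCC2, also called MRP2, is the export pump of the apical membrane for glutathione and glucuronide conjugates. ABCC2 (ENSG00000023839, GRCh38 chromosome 10, 99782640 to 99852594, plus strand, 32 exons in its longest transcript of GENCODE 29) had 139 counts in AGS-GGT7 and 52 counts in AGS-ctrl. Its level was 2.01 FPKM (1.69 to 2.38) in AGS-GGT7 and 0.575 FPKM (0.429 to 0.754) in AGS-ctrl, 3.50-fold higher (2.53 to 4.91). The level intervals of the libraries did not meet. ABCC2 passed the limit of 1 FPKM only in AGS-GGT7, the library in which it was higher, so its rank is a description. The difference of log2(FPKM + 1) was 0.94, rank 145 of the 14215 measured genes and rank 84 of 10625 protein-coding ones. The 3 protein-coding genes next above it in this order were AGO1, ZNF331 and KCTD21, and the 3 next below were PALM2-AKAP2, PLA2G16 and C7orf55-LUC7L2, between 0.92 and 0.96. Even so ABCC2 stayed a minor member: it made up 3.06% of the summed FPKM of subfamily C in AGS-GGT7 and 1.01% in AGS-ctrl. By the authors' FPKM it ranked 21st among the 36 genes in AGS-GGT7 and 24th in AGS-ctrl. By the length of the longest transcript it ranked 24th in AGS-GGT7.

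The bases just before the start site are shown for ABCC2, for the next higher genes ABCA3 and ABCA1, and for ABCC5 as the lowest, to set side by side the promoters of the members with the largest ratios each way. The sequences are from RefSeq on GRCh38.p14 and run 5′ to 3′ on the strand of the gene, up to the base before the first start that RefSeq or GENCODE 29 annotates. Capitals mark any match, on either strand, to TGACNNNGC (the core of the antioxidant response element), TGANTCA (AP-1), TGATGNAA (the composite element of C/EBP and ATF factors), CACGTG (E-box), TGACGTCA (CRE), GGGCGG (GC box) or CCAAT. The ABCC2 stretch is chr10:99782390-99782639 (plus strand), that of ABCA3 is chr16:2340747-2340978 (minus strand), that of ABCA1 is chr9:104928238-104928405 (minus strand) and that of ABCC5 is chr3:184018016-184018134 (minus strand).
ABCC2: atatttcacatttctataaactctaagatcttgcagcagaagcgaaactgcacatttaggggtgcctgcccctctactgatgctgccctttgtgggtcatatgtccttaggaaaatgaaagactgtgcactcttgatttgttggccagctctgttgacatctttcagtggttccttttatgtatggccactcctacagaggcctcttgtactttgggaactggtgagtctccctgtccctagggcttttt
ABCA3: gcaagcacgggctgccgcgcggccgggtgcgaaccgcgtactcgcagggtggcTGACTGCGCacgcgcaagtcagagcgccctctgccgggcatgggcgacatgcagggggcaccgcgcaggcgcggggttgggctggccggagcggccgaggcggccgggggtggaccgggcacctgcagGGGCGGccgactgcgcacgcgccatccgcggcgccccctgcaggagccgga
ABCA1: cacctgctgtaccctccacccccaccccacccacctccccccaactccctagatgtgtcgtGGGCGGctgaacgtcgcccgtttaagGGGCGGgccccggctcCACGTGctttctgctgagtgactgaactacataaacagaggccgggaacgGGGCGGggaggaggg
ABCC5: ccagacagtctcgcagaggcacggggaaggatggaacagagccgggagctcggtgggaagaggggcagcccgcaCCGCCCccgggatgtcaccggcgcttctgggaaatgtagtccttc
None of the 7 motifs occurs in the 250 bases shown for ABCC2, which hold 45.6% G and C, against 78.4% in ABCA3, 66.1% in ABCA1 and 66.4% in ABCC5. ABCA3 has 1 match to the antioxidant core and 1 GC box, ABCA1 has an E-box and 3 GC boxes, and ABCC5 has 1 GC box on the opposite strand. Over the 250 bases before each RefSeq start, the antioxidant core occurred in 9 of 44 promoters of 29 ABC genes and in 10.9% of all 35116 promoters. The other shares were 3 of 44 and 6.57% for AP-1, 1 of 44 and 3.14% for the composite element, 9 of 44 and 6.34% for the E-box, 1 of 44 and 1.65% for CRE, 23 of 44 and 42.6% for the GC box, and 9 of 44 and 32% for CCAAT, which may overlap one another. The 9 genes with the antioxidant core were ABCA2, ABCA3, ABCB6, ABCB9, ABCC4, ABCC10, ABCD4, ABCF1 and ABCG4, of which ABCA3 alone is among the 8 higher genes. Genes with several annotated starts count more than once among promoters, and a match is a description of the letters only.

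The other multidrug resistance proteins of subfamily C divided by gene. ABCC3, which exports conjugates across the basolateral membrane, had 3605 counts (24.0 FPKM) in AGS-GGT7 and 3206 counts (16.3 FPKM) in AGS-ctrl, 1.47-fold higher (1.40 to 1.55). ABCC1, a widely expressed pump for glutathione conjugates, had 2119 counts (18.6 FPKM) in AGS-GGT7 and 2300 counts (15.4 FPKM) in AGS-ctrl, 1.21-fold higher (1.14 to 1.28). ABCC4, which exports cyclic nucleotides and prostaglandins, had 1630 counts (17.3 FPKM) in AGS-GGT7 and 2395 counts (19.4 FPKM) in AGS-ctrl, 1.12-fold lower (1.05 to 1.19). These 3 genes carried most of the subfamily in both libraries, and their order differed: ABCC3 was first of subfamily C in AGS-GGT7, at 36.6% of its summed FPKM, while ABCC4 was first in AGS-ctrl, at 33.97%. That change of first place depends on the authors' gene lengths: per kilobase of the longest transcript, ABCC3 was first in both libraries.

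ABCC5 and ABCC10 were low in both libraries and lower in AGS-GGT7. ABCC5, an exporter of cyclic nucleotides, had 321 counts (1.79 FPKM) in AGS-GGT7 and 631 counts (2.69 FPKM) in AGS-ctrl, a ratio of 0.667 (0.581 to 0.764). ABCC10, an exporter of lipophilic drugs, had 240 counts (1.80 FPKM) in AGS-GGT7 and 419 counts (2.39 FPKM) in AGS-ctrl, 1.33-fold lower (1.13 to 1.57). ABCC2, with fewer counts than either gene in both libraries, was above both in FPKM in AGS-GGT7, although the level intervals of ABCC2, ABCC10 and ABCC5 met there. That order depends on the authors' gene lengths. Per kilobase of the longest transcript, ABCC2 was at 2.33 in AGS-GGT7, below ABCC10 at 4.58 and ABCC5 at 5.27.

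Of the exporters best known for drug resistance outside subfamily C, ABCG2 was expressed and ABCB1 was at the limit of detection. ABCG2, the breast cancer resistance protein that also moves urate, had 928 counts (12.5 FPKM) in AGS-GGT7 and 872 counts (8.97 FPKM) in AGS-ctrl, 1.39-fold higher (1.27 to 1.53). ABCB1, which encodes P-glycoprotein, had 0 counts in AGS-GGT7 and 2 counts in AGS-ctrl. The 0 is compatible with as many as 3 counts, or 0.0295 FPKM, for counting error only, so no difference was detectable at this depth.

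The genes for export of cholesterol and phospholipids were higher for 2 of the 3 measured members. ABCA1, which loads cholesterol and phospholipid onto apolipoprotein A-I, had 1626 counts (13.2 FPKM) in AGS-GGT7 and 1415 counts (8.78 FPKM) in AGS-ctrl, 1.51-fold higher (1.40 to 1.62). ABCG1, which passes cholesterol to high-density lipoprotein, had 892 counts (11.6 FPKM) in AGS-GGT7 and 955 counts (9.47 FPKM) in AGS-ctrl, 1.22-fold higher (1.12 to 1.34). ABCA7, a phospholipid transporter of the same branch, went the other way with 537 counts (3.93 FPKM) in AGS-GGT7 and 884 counts (4.94 FPKM) in AGS-ctrl, 1.26-fold lower (1.13 to 1.40). ABCA1 and ABCG1 are textbook targets of the liver X receptors, whose genes NR1H3 and NR1H2 had intervals that held 1: NR1H3 was at 2.49 FPKM in AGS-GGT7 and 2.27 FPKM in AGS-ctrl, and NR1H2 at 5.15 FPKM in AGS-GGT7 and 4.74 FPKM in AGS-ctrl.

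Among the remaining lipid transporters of subfamily A, ABCA3 stood out by its level. ABCA3, known for packing phospholipids into the lamellar bodies of lung surfactant, had 2467 counts in AGS-GGT7 and 2115 counts in AGS-ctrl. It was at 25.4 FPKM (24.4 to 26.5) in AGS-GGT7, first among ABC genes there by the authors' FPKM but with an interval that met that of ABCC3 and 4th by the length of the longest transcript, and at 16.6 FPKM (15.9 to 17.4) in AGS-ctrl, where it ranked 6th, a difference of 1.53-fold (1.44 to 1.62). ABCA2, of late endosomes and lysosomes, had 2623 counts (12.3 FPKM) in AGS-GGT7 and 3610 counts (12.9 FPKM) in AGS-ctrl, a ratio of 0.952 (0.905 to 1.002). ABCA5, also of the endosomal and lysosomal membrane, had 1020 counts (5.50 FPKM) in AGS-GGT7 and 1524 counts (6.27 FPKM) in AGS-ctrl, 1.14-fold lower (1.05 to 1.24), and shares 318 exonic bases with its neighbour ABCA10.

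**Figure D2:**
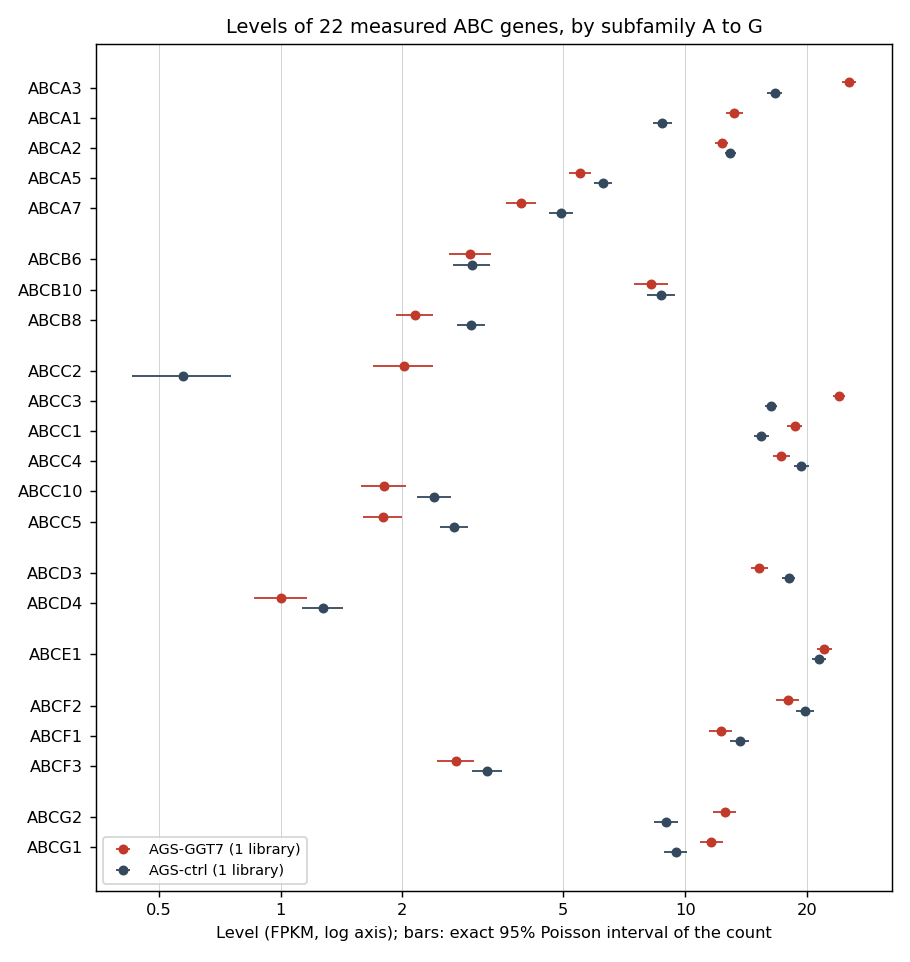
Level in FPKM (log axis) of 22 measured ABC genes in the AGS-GGT7 library and in the AGS-ctrl library, grouped by subfamily A to G and ordered by ratio within each, with exact 95% Poisson intervals of the counts. Levels run from 1.00 to 25.4 FPKM in AGS-GGT7 and from 0.575 to 21.4 FPKM in AGS-ctrl, and ABCC2 is the gene whose points lie farthest apart.

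The intracellular transporters of subfamily B differed little, apart from ABCB8. ABCB8, a transporter of the inner mitochondrial membrane, had 353 counts (2.15 FPKM) in AGS-GGT7 and 636 counts (2.95 FPKM) in AGS-ctrl, 1.37-fold lower (1.21 to 1.57). It shares 207 exonic bases with a gene on the opposite strand, and how strand was treated in counting is not known here. ABCB10, which takes part in heme synthesis, was at 8.24 FPKM in AGS-GGT7 and 8.73 FPKM in AGS-ctrl, and ABCB6, a porphyrin transporter, at 2.94 FPKM in AGS-GGT7 and 2.97 FPKM in AGS-ctrl. Both ratios were within counting error. ABCB6 is uncertain, since 94.2% of its longest transcript is repeated at 95% identity or more in an overlapping gene on the same strand. ABCB9, the lysosomal peptide transporter, fell below the limit with 98 counts in AGS-GGT7 and 164 in AGS-ctrl, and it too overlaps other genes.

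In subfamily D, ABCD3 and ABCD4 were lower in AGS-GGT7. ABCD3, the abundant peroxisomal membrane protein for branched-chain and other acyl-CoA import, had 1732 counts (15.2 FPKM) in AGS-GGT7 and 2682 counts (18.02 FPKM) in AGS-ctrl, 1.18-fold lower (1.11 to 1.26). ABCD4, which acts in lysosomal export of cobalamin, had 178 counts (1.00 FPKM) in AGS-GGT7 and 296 counts (1.27 FPKM) in AGS-ctrl, 1.27-fold lower (1.05 to 1.54). Both differences were small. ABCD4 shares 624 exonic bases with a gene on the same strand, so its counts are uncertain.

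The ribosome-bound members included ABCE1, the ABC gene with the highest FPKM in the AGS-ctrl library, although its interval met that of the next gene. ABCE1, which splits ribosomes for recycling, had 2009 counts (22.1 FPKM) in AGS-GGT7 and 2557 counts (21.4 FPKM) in AGS-ctrl, a ratio of 1.03 (0.971 to 1.09), and was 3rd in AGS-GGT7 and first in AGS-ctrl. ABCF1, which acts in translation initiation, had 894 counts (12.2 FPKM) in AGS-GGT7 and 1306 counts (13.6 FPKM) in AGS-ctrl, 1.11-fold lower (1.02 to 1.22). ABCF2 was at 17.9 FPKM in AGS-GGT7 and 19.8 FPKM in AGS-ctrl, and ABCF3 at 2.71 FPKM in AGS-GGT7 and 3.23 FPKM in AGS-ctrl. The 3 genes of subfamily F thus lay below 1 by similar factors, of 1.10 to 1.19. ABCF2 is uncertain where reads were shared with an overlapping gene on the same strand that holds 54.1% of its longest transcript, and ABCE1 overlaps genes on the opposite strand.

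The 12 remaining genes were under 1 FPKM in both libraries, together with 144 counts in AGS-GGT7 and 265 in AGS-ctrl. ABCB9 held most of these, with 98 in AGS-GGT7 and 164 in AGS-ctrl. Its place under the limit depends on the authors' gene length. Per kilobase of the longest transcript, ABCB9 was at 1.57 in AGS-GGT7 and 2.01 in AGS-ctrl. Besides ABCB1 and ABCB9, the 12 genes were ABCA6, ABCA8, ABCA9, ABCA10, ABCA12, ABCA13, ABCC6, ABCC8, ABCC11 and ABCG4. ABCA13, a very long lipid transporter, had 3 counts (0.0116 FPKM) in AGS-GGT7 and 35 counts (0.104 FPKM) in AGS-ctrl, a ratio of 0.112 (0.0221 to 0.356), and was the 1 gene of the 12 whose interval excluded 1. ABCC8, the sulfonylurea receptor of potassium channels, had 6 counts in AGS-GGT7 and 16 in AGS-ctrl, ABCC11, which acts in apocrine secretion, had 4 in AGS-GGT7 and 11 in AGS-ctrl, and ABCC6, known from pseudoxanthoma elasticum, had 10 in each. ABCA12, which moves lipids in skin keratinocytes, had 5 counts in AGS-GGT7 and 6 in AGS-ctrl, and ABCG4, a sterol exporter of brain, had 3 in AGS-GGT7 and 6 in AGS-ctrl. The neighbouring chromosome 17 genes ABCA6, ABCA8, ABCA9 and ABCA10 had between 0 and 9 counts in each library, while ABCA5 of the same cluster was well expressed. Differences among these genes, ABCA13 apart, were not detectable at this depth.

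By subfamily, the median log2 difference was -0.07 over 5 measured genes of A, -0.04 over 4 of B, 0.05 over 6 of C, -0.18 over 3 of D, -0.15 over 3 of F and 0.35 over 2 of G, with ABCE1 at 0.04. Over all 24 genes it was -0.10, with 9 genes above 0 (10 with size factors of DESeq2 or upper quartile scaling), beside -0.03 over all measured genes. The medians of A and C rest on few genes: when only genes that reached 5 FPKM were kept they were 0.24 and 0.26, and the median of A was also 0.24 without ABCA5, its 1 measured gene that overlaps another. The signs within subfamilies A, B and C were mixed, whereas both measured genes of G were higher and all of F lower.

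Summed levels, which give little weight to low genes, were higher for A, C and G and lower for D and F. The 36 genes added up to 263 FPKM in AGS-GGT7 and 246 FPKM in AGS-ctrl, a ratio of 1.07. The same ratio was 1.06 for the summed FPKM of all genes and 1.01 for that of protein-coding genes, the type of all 36. The family held 0.262% of the counts in AGS-GGT7 and 0.245% in AGS-ctrl. Subfamily C was the largest in both libraries, with 65.7 FPKM in AGS-GGT7 and 57.02 FPKM in AGS-ctrl, followed by A with 60.6 FPKM in AGS-GGT7 and 49.8 FPKM in AGS-ctrl. In summed counts per library total, G was 1.303 times (1.22 to 1.39), C 1.17 times (1.14 to 1.21) and A 1.13 times (1.10 to 1.17) the AGS-ctrl value. The same ratio was 0.861 (0.820 to 0.904) for D, 0.891 (0.843 to 0.941) for F and 0.939 (0.884 to 0.998) for B. These sums follow their few abundant genes, and leaving out ABCA3 brought the summed FPKM ratio of the family to 1.04.

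**Figure D3:**
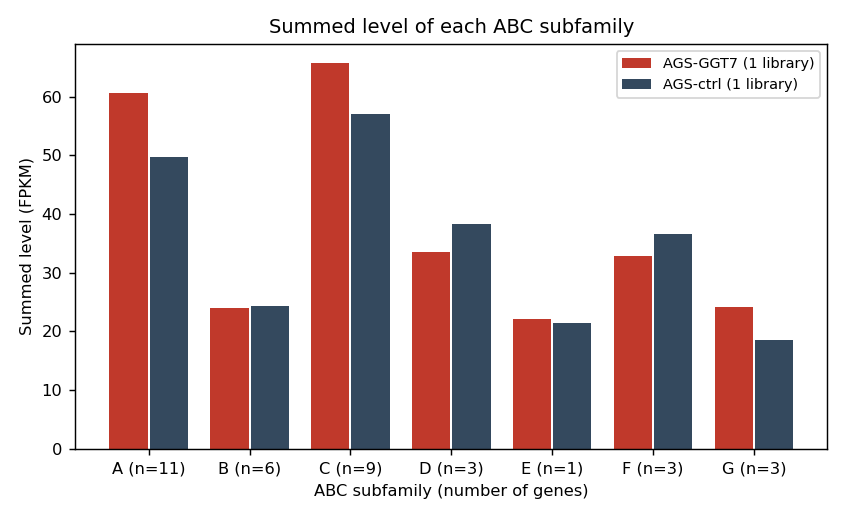
Summed level in FPKM of all genes of each ABC subfamily in the AGS-GGT7 library (left bars) and the AGS-ctrl library (right bars), with the number of genes under each pair and no error bars, since each bar is 1 library. A, C and G are higher in AGS-GGT7, D and F are lower, and B and E are nearly level.

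The order of levels among the genes was broadly alike in both libraries. In AGS-GGT7 the first 3 were ABCA3 at 25.4, ABCC3 at 24.0 and ABCE1 at 22.1 FPKM, and the intervals of ABCA3 and ABCC3 met, so those neighbours were not told apart. In AGS-ctrl the first 3 were ABCE1 at 21.4, ABCF2 at 19.8 and ABCC4 at 19.4 FPKM, each with an interval that met the next. There were 14 genes at 10 FPKM or more in AGS-GGT7 and 10 in AGS-ctrl. Levels between genes depend on the length assumed: with the longest GENCODE 29 transcript in place of the authors' length, ABCC3 came first in AGS-GGT7 and ABCA3 4th.

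**Figure D4:**
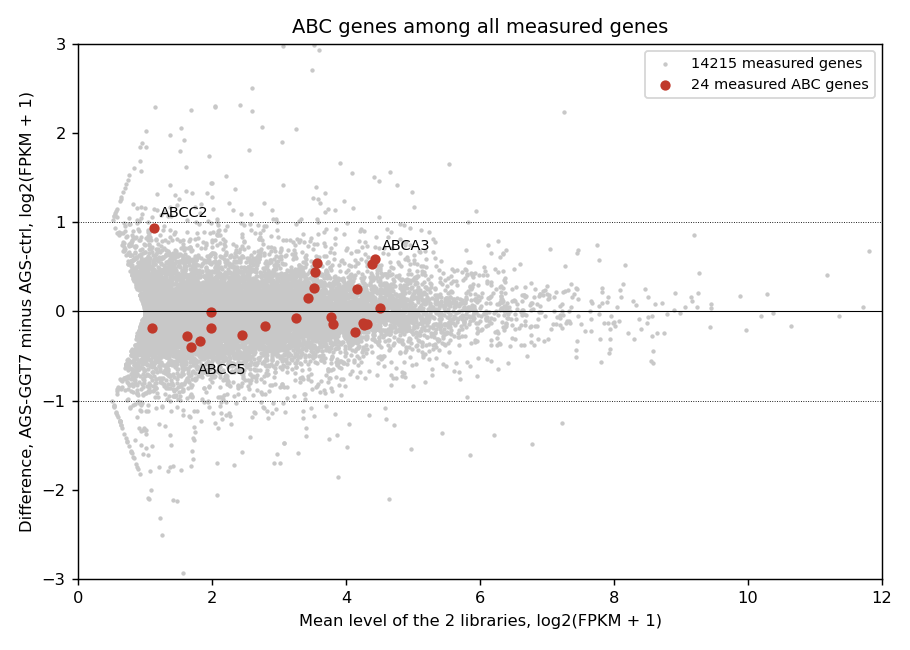
Difference between AGS-GGT7 and AGS-ctrl in log2(FPKM + 1) against the mean level for the 14215 measured genes (grey) and the 24 measured ABC genes (red), with dotted lines at 2-fold; 5 genes beyond 3 on the vertical axis and 7 beyond 12 on the horizontal axis are not drawn. ABCC2, at 0.94, lies close to the upper dotted line, and the other ABC genes lie between -0.40 and 0.58.

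Base composition was set beside the differences. The longest transcripts of the 8 higher genes had a median of 49.6% G and C (41.2% to 60.4%), and those of the 12 lower genes 52.6% (33.1% to 65.8%). Over the 24 genes the Spearman correlation of G and C content with the log2 difference was -0.106, and over 10618 measured protein-coding genes it was also -0.106, as a description across genes, which share the same 2 libraries. After the median of genes of like G and C content was subtracted, all 8 higher and all 12 lower genes kept their sign.

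ABC genes that carry other symbols lay near the middle. TAP1 and TAP2, which pump peptides for antigen presentation, were both slightly higher: TAP1 was at 13.8 FPKM in AGS-GGT7 and 11.9 FPKM in AGS-ctrl, 1.15-fold (1.05 to 1.27), and TAP2 at 10.7 FPKM in AGS-GGT7 and 9.79 FPKM in AGS-ctrl, 1.09-fold (1.01 to 1.18). CFTR, the chloride channel of the family, had 6 counts in AGS-GGT7 and 1 in AGS-ctrl. The pseudogene rows ABCA11P, ABCA17P, ABCC6P1 and ABCF2P1 were all below 1 FPKM, with at most 48 counts in a library.

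Genes that work with the transporters were read from lists chosen by function, with the counts on the log2(FPKM + 1) scale. On that scale 3.9% of all measured genes were 1.5-fold or more higher and 4.97% were lower by as much. Of 11 measured organic anion and drug carriers of the solute carrier families, 0 were past 1.5-fold, and the median was -0.08. SLC51B, a subunit of the bile acid exporter, had only 14 counts in AGS-GGT7 and 12 in AGS-ctrl and was the highest, and SLC29A2, a nucleoside carrier, was the lowest at 6.12 FPKM in AGS-GGT7 and 8.64 FPKM in AGS-ctrl, 1.41-fold lower (1.23 to 1.62). Of 13 measured conjugating enzymes, which make substrates for ABCC2, 1 was past 1.5-fold: MGST1, a microsomal glutathione transferase, at 7.58 FPKM in AGS-GGT7 and 3.90 FPKM in AGS-ctrl, 1.95-fold higher (1.75 to 2.17). GSTM1 was the lowest, 1.27-fold lower (1.10 to 1.45), and the median was -0.10. Below 1 FPKM, and named after their values were seen, were UGT1A8 with 22 counts in AGS-GGT7 and 2 in AGS-ctrl, a ratio of 14.4 (3.54 to 126), and UGT1A1 with 8 counts in AGS-GGT7 and 2 in AGS-ctrl, a ratio of 5.24 (1.05 to 50.7). These glucuronidating enzymes share exons of 1 locus, so how reads were divided between them is uncertain. Of 8 measured scaffold and sorting genes of the apical membrane 0 were past 1.5-fold, including radixin (RDX), which anchors ABCC2, at 22.1 FPKM in AGS-GGT7 and 22.2 FPKM in AGS-ctrl; VIPAS39 at 1.06-fold (0.892 to 1.26) and VPS33B at 0.856-fold (0.724 to 1.01) were the ends of that list.

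The transcription factors known to act on ABC genes had a median of 0.03 over 20 measured genes, with 2 higher and 1 lower by 1.5-fold on the log2(FPKM + 1) scale, beside 3.9% and 4.97% of all measured genes. AHR, the aryl hydrocarbon receptor, was at 33.9 FPKM in AGS-GGT7 and 21.1 FPKM in AGS-ctrl, 1.61-fold higher (1.53 to 1.69), and PPARG, a lipid-activated nuclear receptor, was 1.56-fold higher (1.42 to 1.71). SREBF1, of the sterol-regulated factors, was at 4.44 FPKM in AGS-GGT7 and 8.65 FPKM in AGS-ctrl, 1.95-fold lower (1.79 to 2.13). NFE2L2, which encodes NRF2, an activator of ABCC2 among other genes, was at 7.17 FPKM in AGS-GGT7 and 7.24 FPKM in AGS-ctrl. NRF2 targets outside the family had a median of 0.24 over 21 measured genes, with 4 higher and 0 lower by 1.5-fold, beside the same 3.9% and 4.97%; SLC7A11 and ME1 were the ends of that list, at 3.10-fold (2.93 to 3.27) and 0.727-fold (0.631 to 0.835).

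The remaining partner lists had medians between -0.14 and 0.15, beside -0.03 over all measured genes. Medians and counts past 1.5-fold are on the log2(FPKM + 1) scale, on which 3.9% of all measured genes were higher and 4.97% lower, while folds are plain ratios of FPKM. Cholesterol export and acceptor genes had a median of -0.14 over 8 measured genes, with 0 past 1.5-fold, from NPC1 at 1.23-fold (1.15 to 1.32) to SOAT1 at 0.729-fold (0.685 to 0.775). Peroxisomal and cobalamin genes had a median of -0.06 over 15, with 0 higher and 2 lower by 1.5-fold; LMBRD1, which works with ABCD4 in lysosomes, was 1.34-fold higher (1.15 to 1.57), and ACSL1, a long-chain acyl-CoA synthetase, had 36 counts in AGS-GGT7 and 417 in AGS-ctrl, 8.84-fold lower (6.28 to 12.8). Heme and iron-sulfur cluster genes had a median of -0.01 over 21, with 1 higher and 1 lower by 1.5-fold, from NUBP1 at 1.60-fold (1.31 to 1.96) to the mitochondrial iron importer SLC25A28 at 0.320-fold (0.212 to 0.472). Ribosome recycling and initiation genes, the partners of ABCE1 and subfamily F, had a median of 0.15 over 20 with 0 past 1.5-fold on the log2(FPKM + 1) scale (ZNF598, the highest, at 0.58), and plain ratios ran from ZNF598 at 1.59-fold (1.46 to 1.74) to EIF2S1 at 0.762-fold (0.702 to 0.827). KCNJ11, the channel partner of ABCC8, had 13 counts in AGS-GGT7 and 20 in AGS-ctrl.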

How the data were processed

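RNA of 2 libraries, 1 of AGS-GGT7 and 1 of AGS-ctrl cells, was sequenced by standard Illumina methods, per the labels' protocols. The submitters' processing notes list GRCh38, edgeR, StringTie 1.3.0 and HISAT2 without roles, and which annotation, counter and strand setting were used is not stated there or in the labels. For each gene the authors deposited counts and FPKM values of both libraries. The deposited counts may be estimated counts, although all are whole in intact lines, and 2 of 23378 lines, with shifted or missing cells, were left out. The totals behind the authors' FPKM differ between the libraries as the summed counts do.

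In 23 rows a symbol turned into a date was replaced from GENCODE 29, and rows sharing a symbol were summed, which left 23321 genes. Differences are log2 of FPKM with a pseudocount of 1, and folds are plain ratios of the deposited FPKM. Ratio intervals are exact conditional (Clopper-Pearson) 95% intervals, level intervals exact Poisson, and they hold no more than counting error, because PCR copies were not told apart from separate molecules. The ratio intervals were tested on data simulated with counting error alone, the error that they assume. That test therefore cannot show how they behave under other variation. No test of groups was run. The members, roles and lists were chosen with earlier results of these data known. Named are all members but 2, which are not reported here singly and stay in the counts and sums, ABCB1, and in each list the largest difference each way; RDX, PPARG, NFE2L2, NR1H2, NR1H3 and the markers shown were chosen after their values were seen. Copies were sought with BLAST 2.17.0 at 95% identity over 30% of the longest transcript, and overlaps at 100 exonic bases; 6 of the 24 measured members overlap another gene. Alternatives were other pseudocounts, filters, fold rules, lengths and scalings with edgeR 4.0.16 and DESeq2 1.42.0. The work used Python 3.11.15, scipy 1.17.1 and R 4.3.3.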

Additional observations from a re-analysis of the deposited data

How the results depend on the processing

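Of 186 recomputed values, 176 kept their place, which for a ratio means within its counting interval and for a median within the typical counting error of its members, and 0 changed the sign of a difference beyond counting error. Many of these values are ratios of single genes under other scalings. Those scalings changed each ratio only by factors of 1.009 to 1.029, so such ratios could hardly leave their intervals or change sign. The number of ABC genes 2-fold or more higher in AGS-GGT7 was 0 on the log2(FPKM + 1) scale, but 1 with a pseudocount of 0.1, 1 by the plain ratio of FPKM and 1 by the 1.5-fold rule, each time ABCC2; the smaller pseudocount and the plain ratio by construction shrink low genes less. The number lower stayed at 0 under all these settings. By the plain ratio at 1.5-fold, ABCC5 was lower with library totals but not with the other scalings. ABCC3 passed 1.5-fold with upper quartile scaling, at 1.52. The ratio of ABCC2 was 3.53 with TMM scaling, 3.56 with DESeq2 size factors and 3.60 with upper quartile scaling, while its log2 difference was 0.33 with a pseudocount of 5. The ratio of the summed FPKM moved to 1.04 without ABCA3, its highest member, and to 1.09 with DESeq2 size factors; the cause of these shifts is the setting's own construction. No paired analysis was possible because each group has 1 library and the labels give no replicate numbers. Leaving out a replicate was not possible for the same reason. The depth limits most of the 12 genes under 1 FPKM, though ABCB9 had 98 counts in AGS-GGT7 and 164 in AGS-ctrl. Ratios of these 12 genes other than that of ABCA13 cannot be told from 1. The plain ratio, the length of the longest transcript, the subtraction by G and C content, leaving out overlapping members, pseudocounts for ABCC2 alone, and DESeq2 size factors for the sum were chosen after seeing the data.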
